A study of Mus musculus with 4 samples.

Results

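A group of 10 genes of epithelial defence and the acute-phase response was followed in the mouse colon: the serum amyloid A genes *Saa1*, *Saa2* and *Saa3*, the C-type lectins *Reg3b* and *Reg3g*, and *Retnlb*, *Lypd8*, *Lcn2*, *Pigr* and *Ang4*. The members were the gene probes whose gene name in the array files is one of these 10 symbols, which gave 13 of 41174 probes and 10 of 27086 genes on the array. *Saa1* had been noticed among the deepest falls in Axin2+ cells when the members were chosen, so all values from the Axin2 arrays are a description and carry no test. The later annotation in the Axin2 files no longer gives 1 *Ang4* probe that name, and it was kept under the name in the earlier files.

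The data come from 4 whole-genome Agilent arrays with 2 dyes each, hybridised with RNA of C57BL/6 mice. In the first experiment, distal colon of *Rspo3* KO mice (*Myh11CreErt2/Rspo3 fl/fl*) was compared with control littermates (*Myh11CreErt2/Rspo3 +/+*, labelled Rspo3++). Both groups carried the Cre, which is active in Myh11+ smooth muscle cells and myofibroblasts, and both received tamoxifen (4 mg per 25 g body weight) 2 weeks earlier. The mice were males of 6 to 8 weeks. Each of 2 arrays held 1 KO mouse against 1 control mouse with the dyes reversed, giving 2 pairs. In the second experiment, live epithelial cells (ESA+) of *Axin2CreErt2/Rosa26-tdTomato* mice were sorted 24 h after tamoxifen into tdTomato+ (Axin2+) and tdTomato- (Axin2-) cells and pooled from 3 mice. The same pools were set against each other on 2 arrays, with the dyes exchanged, and count as 1 replicate. Ratios below are log2 ratios of KO over control or of Axin2+ over Axin2-, and a level is the normalized log2 signal of 1 channel, comparable between channels for the same probe only.

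*Rspo3* encodes a stromal secreted protein that strengthens Wnt signalling at the crypt base, and Axin2 is a Wnt target. Of 2 *Rspo3* probes, 1 was well above background in no tissue channel. The other was well above background only in pair 2, in both channels, with a ratio of 0.17, and whether it lies in the deleted part is not given in the sources used here. The KO label was therefore not checked by these probes. *Lgr5*, a stem cell gene that depends on Wnt, was well above background in both control mice and in neither KO mouse, so its ratios of -1.28 and -2.61 give a bound, at least 3.81-fold higher in control mice (limma adjusted p = 0.10). The pairs shared little over all 15289 genes measured (r = 0.030 across genes, which are not independent replicates). The 2 Axin2 arrays, which hold the same RNA, had r = 0.92 over 15772 genes. Both arrays had the same direction for 44.1% of genes in tissue and for 82.7% in sorted cells. The KO sample was in Cy5 in pair 1 and in Cy3 in pair 2. A difference between the pairs therefore cannot be told apart from a dye effect. The epithelial markers *Epcam*, *Cdh1*, *Krt8* and *Vil1* were well above background in every tissue and sorted channel. Of the 5 epithelial markers measured in tissue, 1 passed limma's adjusted threshold in KO colon: *Cdx2*, an intestinal transcription factor, with ratios of 2.33 and 1.91 (adjusted p = 0.021).

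The colon epithelium keeps bacteria away from its surface with secreted and surface-bound proteins, and many of their genes are raised by microbial contact and by cytokines such as IL-22, which signals through STAT3. Serum amyloid A proteins are acute-phase proteins that bind lipids and retinol and are made by the liver and, for some members, by the gut epithelium. Reg3b and Reg3g are secreted lectins that bind and kill bacteria. RELMβ, encoded by *Retnlb*, and angiogenin 4, encoded by *Ang4*, are goblet or Paneth cell products with antibacterial activity. Lypd8 binds flagella at the surface of the colon, lipocalin 2 (*Lcn2*) sequesters bacterial siderophores, and the polymeric immunoglobulin receptor (*Pigr*) carries IgA through the epithelium.

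*Saa1* and *Saa2* are shown first because they moved as a pair in the Axin2 arrays, and *Reg3b* and *Reg3g* because they did not. *Saa1* and *Saa2* lie head to head on chromosome 7, with 8651 bases between them, and *Saa3* lies 20881 bases from *Saa1*. *Reg3b* and *Reg3g* share chromosome 6, with 92802 bases between the genes. The 250 bases before a transcript start of each gene are given below from RefSeq (GRCm38.p6), 5′ to 3′ on the strand of the gene, and capitals mark matches to the motifs searched. For *Saa1* this start lies inside the gene as annotated (chr7:46740497-46743181), so most of its stretch is within the span of a longer transcript. They lie at chr7:46742981-46743230 (minus strand, *Saa1*), chr7:46751583-46751832 (plus strand, *Saa2*), chr6:78370635-78370884 (plus strand, *Reg3b*) and chr6:78468875-78469124 (minus strand, *Reg3g*).
Saa1: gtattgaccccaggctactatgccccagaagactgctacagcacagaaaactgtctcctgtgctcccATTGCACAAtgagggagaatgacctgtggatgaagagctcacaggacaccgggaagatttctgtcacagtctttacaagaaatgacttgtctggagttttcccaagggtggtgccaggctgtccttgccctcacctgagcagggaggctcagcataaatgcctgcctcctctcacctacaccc
Saa2: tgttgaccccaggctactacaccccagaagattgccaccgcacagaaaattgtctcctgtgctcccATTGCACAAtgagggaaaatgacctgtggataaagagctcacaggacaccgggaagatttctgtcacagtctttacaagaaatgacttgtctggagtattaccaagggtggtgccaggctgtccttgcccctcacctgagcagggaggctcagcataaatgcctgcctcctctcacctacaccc
Reg3b: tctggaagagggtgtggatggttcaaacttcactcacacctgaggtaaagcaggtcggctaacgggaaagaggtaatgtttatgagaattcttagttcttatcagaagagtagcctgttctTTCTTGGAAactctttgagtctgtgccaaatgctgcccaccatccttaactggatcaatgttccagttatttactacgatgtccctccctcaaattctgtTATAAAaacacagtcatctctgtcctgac
Reg3g: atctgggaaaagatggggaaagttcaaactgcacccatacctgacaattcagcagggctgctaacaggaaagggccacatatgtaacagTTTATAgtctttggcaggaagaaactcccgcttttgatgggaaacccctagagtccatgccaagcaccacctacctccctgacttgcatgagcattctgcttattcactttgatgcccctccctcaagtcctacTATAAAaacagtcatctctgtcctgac

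The *Saa1* and *Saa2* sequences were identical at 238 of 251 aligned positions (94.8%), and those of *Reg3b* and *Reg3g* at 173 of 253 (68.4%). The other pairs among the 9 members with a sequence had identities of 40.3% to 51.3%. Motifs were searched on both strands: a STAT site as TTCNNNGAA, a C/EBP site as TTNNGNAAT and a TATA box as TATAAA. *Saa1* and *Saa2* each held 1 C/EBP match, ATTGCACAA, at 183 and 184 bases before the start. Such a match was held by 10.2% of all 32841 promoters of this length. *Reg3b* held a STAT match (TTCTTGGAA, 129 bases before the start) and *Ang4* another (TTCCCTGAA, 192 bases before the start), against 7.02% of all promoters. A TATA match was found 29 bases before the start of *Reg3b* and 27 before that of *Reg3g*. *Reg3g* held another on the opposite strand (TTTATA, 161 bases before the start). A TATA match was held by 12.4% of all promoters. The shares of all promoters count a match anywhere in the 250 bases on either strand, whatever its position. A match is a run of letters only, and no binding was measured.

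Each member was read by a 60-base probe. The probes that decide how the serum amyloid A and *Ang4* values can be read are given here, 5′ to 3′, with their mm9 positions from the array files. The first *Saa1* probe spans 473 bases of genome at chr7:53996167-53996639 and therefore crosses an intron, and the second lies within 60 bases at chr7:53996070-53996129, both on the minus strand. The *Saa3* probe lies at chr7:53968031-53968090 (minus strand). Its annotation lists transcripts of both *Saa3* and *Saa1*, so the value called *Saa3* may hold signal of *Saa1*. The annotation of the *Saa1* probes lists *Saa1* only, and that of the *Saa2* probe *Saa2* only. Cross-signal between *Saa1* and *Saa2* was not tested. The *Ang4* probes lie at chr14:52383665-52383704 and chr14:52384066-52384125 (minus strand), in a family of closely related ribonucleases. The array files place the 60 bases of the first *Ang4* probe on 40 bases of genome, and its accession matched no RefSeq gene, so its values are uncertain.
Saa1, first probe: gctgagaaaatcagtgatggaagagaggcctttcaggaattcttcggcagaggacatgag
Saa1, second probe: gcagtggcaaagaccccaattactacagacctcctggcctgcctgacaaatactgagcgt
Saa3: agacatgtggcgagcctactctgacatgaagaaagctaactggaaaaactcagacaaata
Ang4, first probe: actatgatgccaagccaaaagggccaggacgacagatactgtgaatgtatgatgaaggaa
Ang4, second probe: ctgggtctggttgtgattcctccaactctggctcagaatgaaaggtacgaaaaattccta

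Most of these genes were lower in Axin2+ cells than in Axin2- cells. A gene was counted when its mean ratio exceeded 1.5-fold and both arrays turned the same way. Of the 9 members measured, 7 were lower by this rule and 0 were higher. Among all 15772 genes, 14.8% passed, 6.97% lower and 7.84% higher. The members' median ratio was -1.79, against -0.01 over all genes. The members were chosen partly on this contrast, so nothing is read from the count. Sorted pools cannot tell fewer cells of a type from less RNA per cell.

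The 3 serum amyloid A genes had the lowest ratios of the group. *Saa1* had ratios of -3.00 on array 1 and -3.20 on array 2 with its first probe. The second probe gave -3.02 on both. Its level with the first probe was 14.00 and 13.80 in Axin2- cells and 11.002 and 10.60 in Axin2+ cells. Levels of Axin2- cells were thus above those of Axin2+ cells on each array and with each probe, by 8.59-fold in the mean of the first probe. *Saa2* had ratios of -3.00 and -3.15, with levels of 15.07 and 14.83 in Axin2- cells and 12.06 and 11.69 in Axin2+ cells. *Saa3* had ratios of -2.85 and -2.84. All 3 genes were well above background in every sorted channel, and the dye swap left each ratio within 0.20 of the other.

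**Figure D1:**
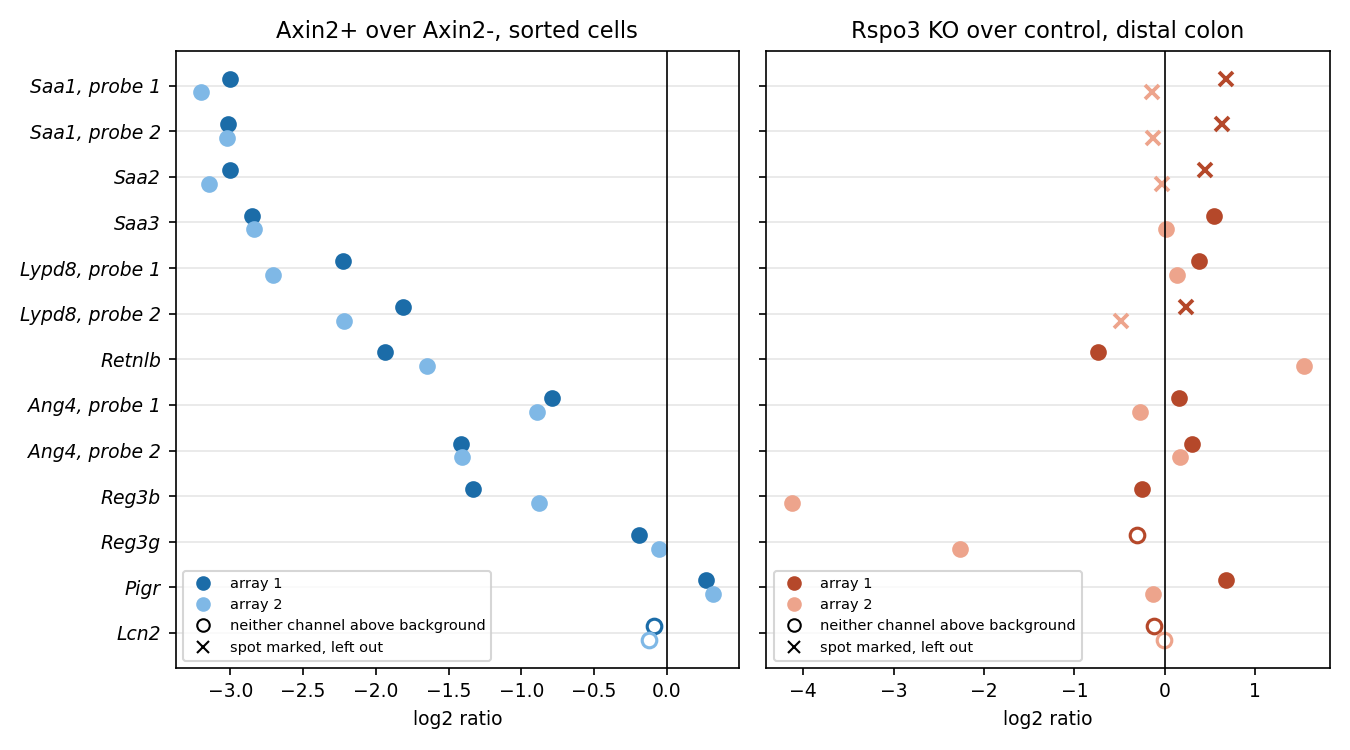
Log2 ratio (x axis) of each of the 13 member probes (rows) on each array, for Axin2+ over Axin2- sorted cells (left) and *Rspo3* KO over control distal colon (right). Dark points are array 1 and light points array 2, open points had neither channel above background, and crosses are spots marked by the extraction software and left out of the fit. On the left the *Saa* probes sit near -3 and *Pigr* near 0.3, and on the right *Reg3b* falls to -4.12 in pair 2 only.

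*Lypd8*, the flagella-binding protein of surface enterocytes, came next, with ratios of -2.23 and -2.70. Its second probe gave -1.81 and -2.22. *Retnlb* had ratios of -1.93 and -1.65, and its level was 14.14 and 13.95 in Axin2- cells against 12.20 and 12.30 in Axin2+ cells. The *Ang4* probes disagreed in size, with -1.41 on both arrays for the second, brighter probe and -0.79 and -0.89 for the first. All of these genes were lower in Axin2+ cells on both arrays.

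The C-type lectins differed from each other. *Reg3b* had ratios of -1.33 and -0.88, a mean fold of 2.15 toward Axin2- cells. *Reg3g* had ratios of -0.19 and -0.05, at levels of 13.31 and 13.29 in Axin2- cells and 13.12 and 13.24 in Axin2+ cells. *Reg3g* was thus bright in both pools at nearly the same level. *Pigr* was the only measured member above 0 on both arrays, with ratios of 0.27 and 0.32, and its mean turned to -0.07 when the arrays were centred on their medians in place of loess. *Lcn2* was not well above background in any of the 8 channels and has no ratio.

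**Figure D2:**
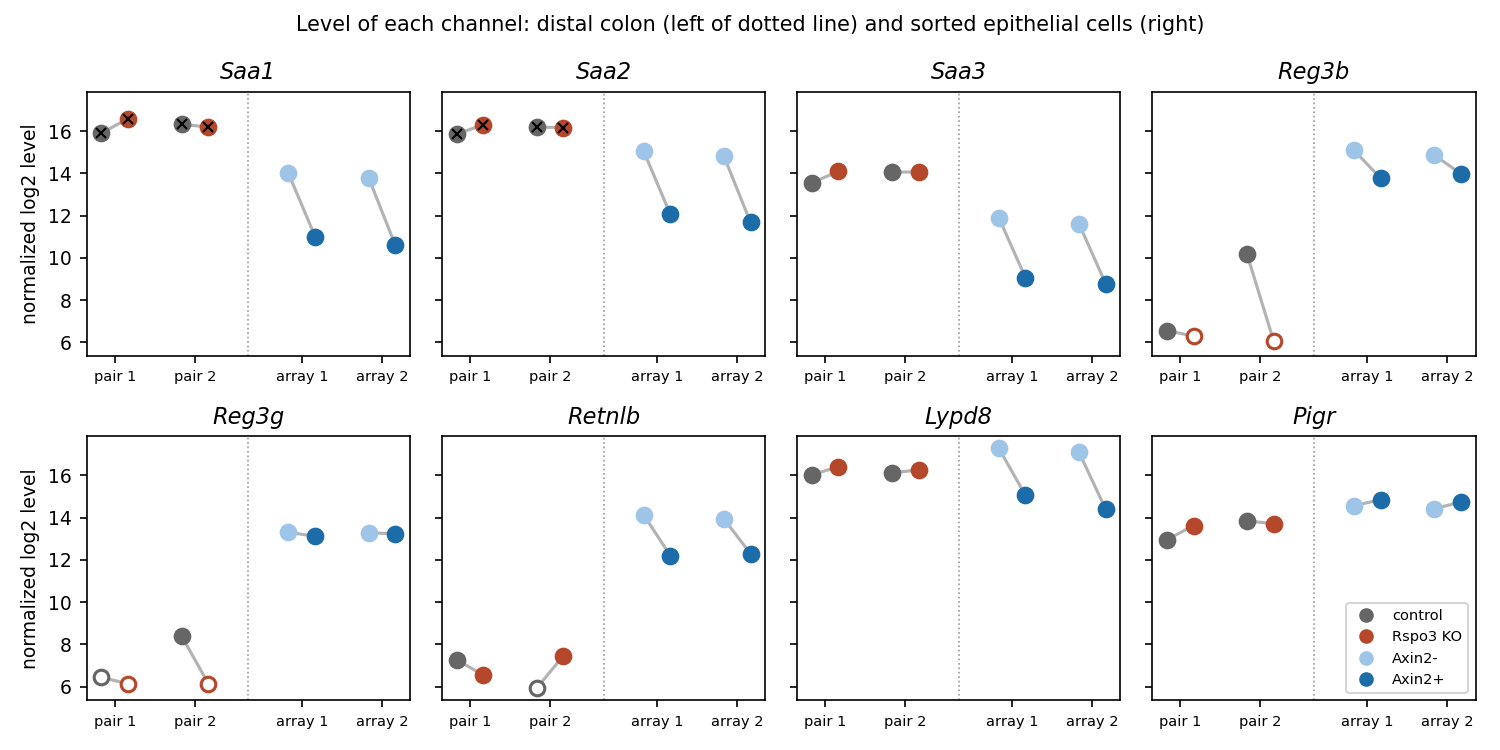
Normalized log2 level (y axis) of 8 members in each channel, for the distal colon of pairs 1 and 2 (left of the dotted line, grey control and red *Rspo3* KO) and the sorted cells on arrays 1 and 2 (right, light blue Axin2- and dark blue Axin2+). Lines join the channels of 1 array, open points were not well above background and crosses mark spots left out of the fit. *Reg3b*, *Reg3g* and *Retnlb* stay between 5.93 and 10.18 in tissue and between 12.20 and 15.10 in sorted cells.

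Markers of crypt position moved beside the members. Of 13 markers of surface enterocytes, 10 were lower in Axin2+ cells past 1.5-fold and 1 was higher (*Clca3b*, 1.29 and 0.82). Among all genes 6.97% were lower and 7.84% higher. *Clca3b* entered the list under the older name *Clca4*, and whether it marks surface enterocytes was not checked. *Krt20*, a keratin of mature surface cells, had ratios of -3.01 and -2.77, and *Car4*, a carbonic anhydrase of the same cells, -3.06 and -3.18. Of 10 goblet cell markers measured, 5 were lower, among them *Clca1* (-2.77 and -2.96) and *Fcgbp* (-1.87 on both), while *Muc2*, the gel-forming mucin, was not past the threshold. Of 11 crypt base markers, 8 were higher, including *Lgr5* (1.5 and 1.56), *Axin2* (1.35 and 1.30) and *Mki67* (1.96 and 2.12). The summed level of the surface markers was 16.55 and 16.47 in Axin2+ cells and 18.22 and 18.09 in Axin2- cells. The part of these shifts in the members' ratios was not tested.

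Other antimicrobial genes of the epithelium were lower in Axin2+ cells in 11 of 23 measured and higher in 1, against 6.97% and 7.84% of all genes. Their list was also drawn up with earlier results of these data known, so nothing is read from this count. *Zg16*, a lectin that binds Gram-positive bacteria, had ratios of -2.75 and -2.65. The protease inhibitor *Slpi* had -2.15 and -1.87, *Reg4* -1.29 and -1.36, and the oxidase pair *Duox2* and *Duoxa2* -0.52 and -0.80, and -0.71 and -0.64. *Lyz2* (-1.62 and -1.58), *S100a9* (-0.96 and -0.99) and *Lyz1* were lower too, and they are also products of myeloid cells. *Lyz1* was not well above background in Axin2+ cells and was at least 1.77-fold higher in Axin2- cells. The macrophage marker *Lyz2* and the neutrophil marker *S100a9* were the sole genes of their lists past the threshold. *Pla2g2a* (-0.75 on both), *Itln1* (-0.63 and -0.58) and *Ang2* (-0.96 and -0.97) were lower as well. The exception was *Reg1*, with 0.57 and 0.76. The median over the list was -0.48.

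Genes of the cytokine pathways that act on the members, and of 3 further lists, were described in the same way. Among all genes 6.97% were lower and 7.84% higher. The lists were drawn up with earlier results of these data known, so nothing is read from the counts. Of 22 measured genes of IL-22, IL-6 and IL-17 receptors and signalling, 5 were lower and 1 was higher, with a median of -0.17. *Il18*, an epithelial cytokine gene, was the lowest with -1.76 and -1.73. The receptor chains *Il17rc* (-1.05 and -0.81) and *Il10rb* (-0.64 and -0.57), and the transcription factors *Cebpd* (-0.86 and -0.91) and *Stat3* (-0.69 and -0.54), were also lower. *Nfkbiz*, an NF-kB cofactor, was higher, with 0.73 and 0.64. Among 27 genes of bacterial sensing, 3 were lower: *Naip1* (-0.98 and -1.15), *Tlr1* (-1.0 and -0.89) and *Ticam1* (-0.63 and -0.61). Among 6 acute-phase genes measured, *C3* (-0.74 and -0.93) and *Il1rn* (-0.74 and -1.02) were lower. Of 5 genes of IgA secretion measured, *Sdc1* (-0.31 and -0.86) was lower.

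**Figure D3:**
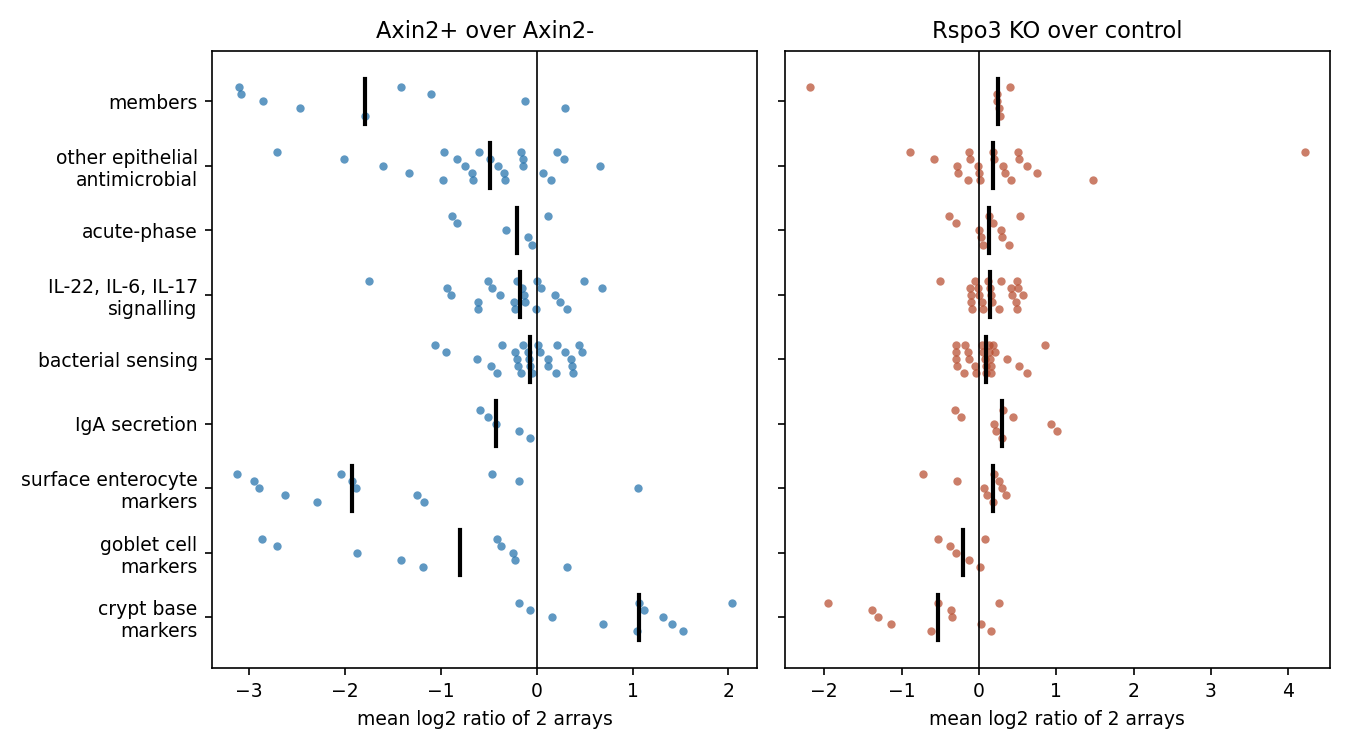
Mean log2 ratio of 2 arrays (x axis) for each measured gene of 9 lists (rows), for Axin2+ over Axin2- (left) and *Rspo3* KO over control (right). Points are genes and black bars list medians. The members' median is -1.79 on the left, near the -1.93 of the surface enterocyte markers, and 0.25 on the right.

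In the *Rspo3* KO colon, no member changed by the test. With limma and Benjamini-Hochberg adjustment over 15289 genes, 0 of 6 members measured passed 0.05, against 0.229% of all genes (0.124% higher and 0.105% lower). Before adjustment 1 member (*Reg3b*) had p under 0.05, against 4.61% of all genes. By the count of 1.5-fold alike in both pairs, 1 member was lower (*Reg3b*) and 0 were higher, against 2.46% and 1.84% of all genes, or 4.3% either way. The median over the 6 members was 0.25, against -0.01 over all genes, and it was 0.33 in pair 1 alone and 0.05 in pair 2 alone. The p-values rest on 2 pairs of mice. Their variance has 1 residual and 6.76 prior degrees of freedom, so most of it is borrowed from all genes. Bulk colon cannot tell fewer cells of a type from less RNA per cell.

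The other 4 members had no ratio in this fit. The spots of *Saa1*, *Saa2* and the second *Lypd8* probe were marked as non-uniform by the extraction software on both tissue arrays, *Reg3g* was above background in 1 channel only, and *Lcn2* in none. The marked spots were bright: over the arrays, the median Cy5 signal of non-uniform spots was 85105 and 86841, against 171 and 191 for all gene spots. With marked spots kept, *Saa1* had ratios of 0.68 in pair 1 and -0.14 in pair 2, and *Saa2* had 0.45 and -0.03. The 95% interval of the mean was -0.38 to 0.92 for *Saa1* and -0.36 to 0.78 for *Saa2*. *Saa3*, whose spot was not marked, had 0.55 and -0.00, with an interval of -0.30 to 0.85. All 3 genes were thus higher in KO colon in pair 1 and near 0 or below in pair 2, and adjusted p was 0.9997 for *Saa3*. Pair and dye cannot be told apart in this split. Adipocyte markers, of which 6 of 8 were above background in some tissue channel, had a summed level of 14.49 in the KO and 13.17 in the control mouse of pair 1, and of 12.53 and 12.46 in pair 2. Among them *Cfd* had ratios of 1.35 and -2.18 and *Fabp4* of 1.37 and 0.14. The 9 surface enterocyte markers measured had a median ratio of 0.50 in pair 1 and -0.30 in pair 2, while the summed level of all 13, with marked spots kept, was higher in KO in each pair (18.27 against 17.95, and 18.35 against 17.82). Their part in the serum amyloid A ratios was not tested.

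*Reg3b* was the one member with a large difference in the fit, and its high level was seen in a single mouse. Its level was 6.56 in the control and 6.30 in the KO mouse of pair 1, and 10.18 in the control and 6.05 in the KO mouse of pair 2. The raw signal of that second control was 3016 over a background of 85, whereas the other 3 mice had 42.1 to 111 over backgrounds of 23 to 72. The ratios were -0.26 and -4.12, with a mean of -2.19 (limma SE 0.73, 95% interval -3.88 to -0.50, adjusted p = 0.75, n = 2). The SD of the 2 ratios was 2.73. The limma SE and interval are narrower than these ratios alone would give, because the variance is shrunk toward that of all genes. *Reg3b* was not well above background in either KO mouse, which makes the control at least 4.35-fold higher as a bound from the mean of both pairs. In pair 1 alone the ratio was -0.26. The adjusted p came to 0.02 with the software's own log ratios and to 0.04 with a normexp offset of 16, and was at or above 0.23 under the other alternatives fitted.

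*Reg3g* followed the same mouse. Its level was 8.41 in the control of pair 2, and 6.44, 6.14 and 6.14 in the other control and in the KO mice of pairs 1 and 2. The 3 dim channels were not well above background. The software's own ratios of *Reg3g* were -2.58 in pair 1, from dim channels only, and -4.92 in pair 2. The mean of both controls was at least 2.39-fold above the KO bound, resting on the 1 control that was measured, and the gene was not in the test. Some other genes of the Reg family and of the small intestine were also brighter in that control, and these were picked after their values were seen. *Reg4* was not among them, at 12.22 in that control against 11.82 to 12.40 in the other mice. *Reg3d* was not well above background in any tissue channel. *Reg1* was at 7.47, against 5.96 to 6.15 in the other 3 mice, and *Sis* at 7.56, against 6.20 to 6.22. *Lct* was at 7.92, against 6.35 to 6.98, and *Apoa4* at 6.75, against 6.11 to 6.40. Over all 8 small intestine markers the summed level did not set this mouse apart, with 11.49 against 11.43 to 11.81, since *Fabp2*, the brightest of them, was at 10.64 there and at 10.84 to 11.34 in the others. Their part in the *Reg3b* value was not tested.

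**Figure D4:**
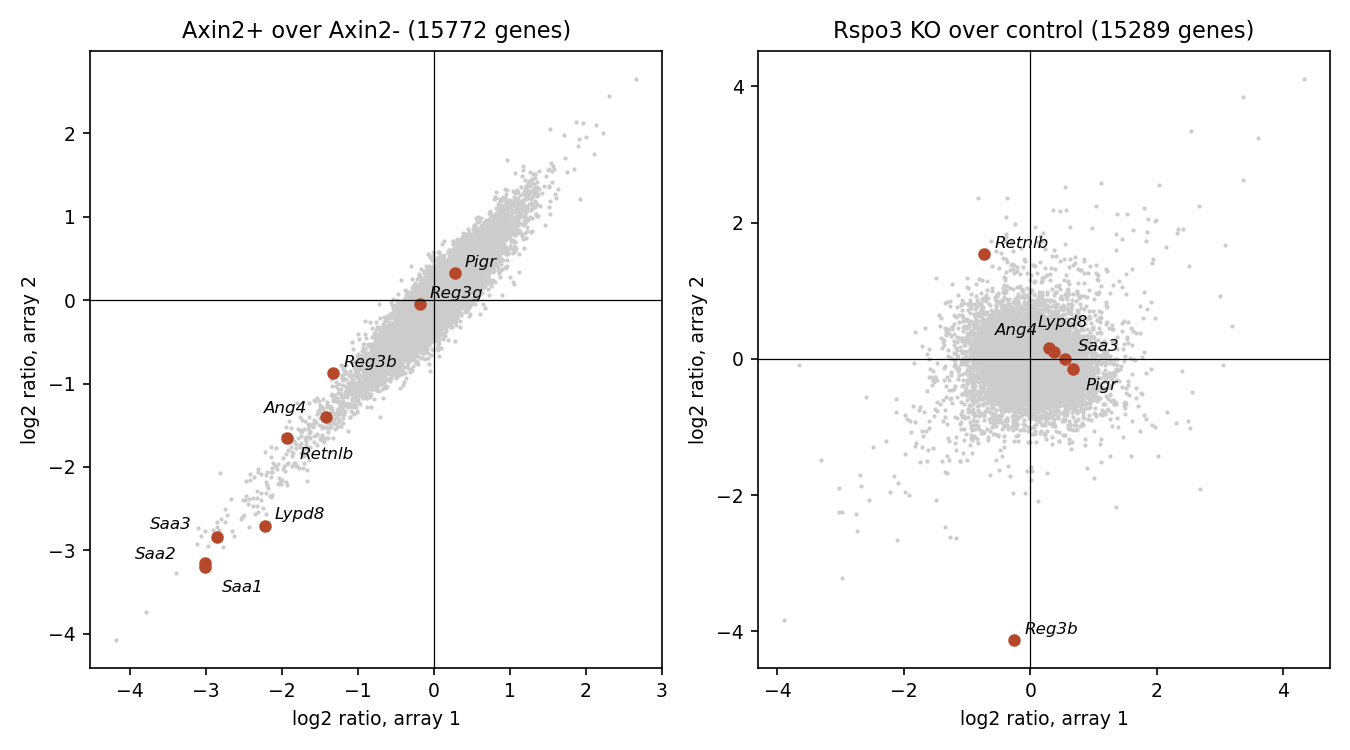
Log2 ratio on array 1 (x axis) against array 2 (y axis) for all genes measured (grey) and the members measured (red, named), for Axin2+ over Axin2- (left, 15772 genes) and *Rspo3* KO over control (right, 15289 genes). On the left 7 members lie low on the diagonal, and on the right *Reg3b* lies at -0.26 and -4.12 and *Retnlb* at -0.74 and 1.54, away from the diagonal.

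*Retnlb* turned in opposite directions in the 2 pairs, with ratios of -0.74 and 1.54 at levels of 7.28 (control) and 6.54 (KO) in pair 1 and 5.93 (control) and 7.47 (KO) in pair 2. The control of pair 2 was not well above background. The mean was 0.40, with an interval of -0.69 to 1.49. *Pigr* also turned, with 0.67 and -0.15, a mean of 0.26 and an interval of -0.37 to 0.89. *Lypd8* had 0.37 and 0.11 (interval -0.30 to 0.78), and *Ang4* 0.30 and 0.16 with its second probe (interval -0.30 to 0.76). The first *Ang4* probe gave 0.16 and -0.27. None of these genes passed the test. The upper ends of the intervals of *Pigr*, *Lypd8*, *Ang4*, *Retnlb* and *Saa3* exceed 1.5-fold, so these 2 pairs leave room for a rise of that size in KO colon. The lower end for *Retnlb* also leaves room for a fall of that size.

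Beside the members, 1 gene of the 21 other antimicrobial genes measured passed limma's adjusted threshold in KO colon. *Lpo*, lactoperoxidase, had ratios of 4.32 and 4.11 (adjusted p = 0.0016). *Pla2g2a*, a phospholipase gene read here as RNA only, had 1.36 and 1.60 (adjusted p = 0.077) and *Duoxa2* 0.26 and 1.23 (adjusted p = 0.95). *Slpi* was bright and its spot on array 1 was marked, and with marked spots kept it had 1.44 and 2.06 (adjusted p = 0.090). For IgA secretion, *Ccl28*, a chemokine for IgA plasma cells, had 1.07 and 0.95 (adjusted p = 0.30), and *Jchain*, the joining chain of the immunoglobulin that *Pigr* carries, 0.75 and 1.12 (adjusted p = 0.40). In bacterial sensing, *Nod2* had 0.53 and 1.16 (adjusted p = 0.61) and *Tnfaip3* 0.72 and 0.51 (adjusted p = 0.91). No gene of the acute-phase list (11 measured) or of the cytokine list (23 measured) was past 1.5-fold alike in both pairs.

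Markers of other cells in the tissue were read beside these values. Of 10 macrophage markers 7 were higher in KO colon in both pairs, against 3101 of all 15289 genes. Past 1.5-fold there was 1 (*Adgre1*, 0.72 and 0.66), against 1.84% of all genes. The summed level of the macrophage markers was 16.09 and 15.44 in KO and 15.24 and 15.06 in control mice. Most of this sum was *Lyz2*, at 15.87 and 15.15 in KO and 14.89 and 14.76 in control mice, so it says little about the other markers. The sum used a different *Lyz2* probe from the fit, where the ratios were 0.62 and 0.42. Of 5 neutrophil markers measured, 0 were past 1.5-fold. The summed level of all 11 on the array, 6 of them above background in some tissue channel, was 11.50 and 10.98 in KO and 10.96 and 11.12 in control mice. The brightest was *S100a9*, at 10.51 and 9.60 in KO and 8.76 and 10.10 in control mice. Of 11 crypt base markers 5 were lower past 1.5-fold in KO colon, against 2.46% of all genes, though none passed the adjusted test. Among the 5 were *Lgr5* and *Smoc2* (-1.71 and -1.06, adjusted p = 0.14). The part of all these cell markers in the members' values was not tested.

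The members sat at very different levels in tissue and in sorted cells. *Reg3b* lay between 6.05 and 10.18 in the 4 tissue channels and between 13.77 and 15.10 in the 4 sorted channels. *Reg3g* lay between 6.14 and 8.41 in tissue and between 13.12 and 13.31 in sorted cells, and *Retnlb* between 5.93 and 7.47 in tissue and between 12.20 and 14.14 in sorted cells. For these 3 genes the ranges did not overlap. The order was opposite for *Saa1*, whose first probe lay between 15.91 and 16.59 in tissue, with its spots marked, and between 10.60 and 14.00 in sorted cells. *Saa3* lay between 13.55 and 14.10 in tissue and between 8.78 and 11.91 in sorted cells, again without overlap. Markers of position along the gut were mixed. *Hoxb13*, a gene of the distal colon, lay between 12.99 and 13.60 in tissue and between 11.05 and 12.33 in sorted cells. *Hoxd13* was also higher in tissue, *Hoxa13* overlapped and *Hoxd12* was higher in sorted cells. *Fabp2*, a fatty acid binding protein of small intestinal enterocytes, lay between 10.64 and 11.34 in tissue and between 14.26 and 15.51 in sorted cells. *Apob* and *Alpi* were also higher in sorted cells, with *Alpi* not well above background in any tissue channel, and *Sis* overlapped. The reverse held for *Rbp2* (8.52 to 8.92 in tissue and 6.21 to 7.59 in sorted cells), *Fabp6*, *Lct* and *Apoa4*. *Lct* and *Apoa4* were not well above background in any sorted channel, and *Apoa4* was so in only 1 tissue channel. Tissue and sorted cells differed in mice, genotype, preparation and slide, which cannot be told apart here.

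Gene profiles nearest to the members were taken over the ratios of the 4 arrays, by Euclidean distance among 13550 genes measured in both experiments. For *Ang4* they were *Slc6a8* (distance 0.07), *Reg4* (0.16) and *Syt13* (0.20), and for *Saa3* *Tmem140* (0.35), *Tmigd1* (0.44) and *Lypd8* (0.68). For *Lypd8* they were *Cyp4b1* (0.38), *Apobec1* (0.50) and *Tgm3* (0.50), and for *Pigr* *Dicer1* (0.08), *Zfp934* (0.09) and *Ctnnal1* (0.11). *Retnlb* had *Zbp1* (0.68), *Ly6m* (0.82) and *Phgr1* (0.83) nearest. The genes nearest to *Reg3b* lay farther away, with *Fmo5* at 2.24, *Aadac* at 2.39 and *Cdkn1b* at 2.42.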

How the data were processed

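RNA of distal colon and of sorted epithelial cells was measured on 4 arrays, grouped by their labels and the methods. For the tissue, the sample labels give distal colon and Trizol, and the methods give colon and another kit. The authors scanned the arrays and ran Agilent Feature Extraction (version 11.5.1.1 per the file headers), and deposited, spot by spot, unnormalized intensities of signal and local background in both dyes. The log10 ratios (Cy5 to Cy3) that the software made are deposited too, both in the array files and in the series' value table. The error of each ratio, also deposited by the authors, is a score of the software's error model. The software's p-values were not used. Probe positions are those of mm9 and promoter positions those of GRCm38.p6.

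Background was corrected with limma (version 3.58.1, R version 4.3.3) (normexp, offset 50). From the deposited intensities, log2 ratios were then computed here and adjusted by loess array by array. Channel levels were then scaled by Aquantile over the 4 arrays. Spots marked as outliers by the software were left out (124 to 510 of 43379 gene spots per array), control spots entered only the background fit, and background outliers were kept out of it. A gene took its brightest probe and counted as measured if, on each array, at least 1 channel of this probe exceeded background. Of 41174 probes, 28473 were named by accession, 5512 by symbol and 356 by synonym through RefSeq (GRCm38.p6), and 6833 kept the name in the files. Between 53.1% and 60.3% of gene spots were well above background per channel, and precision is limited by the small number of arrays.

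The tissue arrays were tested with limma (lmFit, eBayes) against 0, with 1 residual and 6.76 prior degrees of freedom and Benjamini-Hochberg adjustment over all genes. The Axin2 arrays hold 1 pair of pools and were not tested. Each experiment used 1 slide. A bound for a probe not well above background sets the mean of the brighter group against the higher of its own signal and the lowest signal well above background on each array. Promoters were aligned globally (match 1, mismatch 0, gap -1). Members and lists were chosen with earlier results of these data known. Named genes were all members, genes of the other lists past 1.5-fold alike on both arrays or bearing on a member, and the 3 nearest genes of each member. The alternatives were other background settings, median centring, other filters and probe summaries, the software's ratios, error weights, a 2-fold threshold and each array left out, and marked spots kept was added after the data were seen. The listed *Ang3* was left out, since the array's *Ang3* is an angiopoietin.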

Additional observations from a re-analysis of the deposited data

How the results depend on the processing

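Each tissue ratio compares the 2 mice of 1 pair on 1 array, so the limma fit against 0 is itself paired. No paired analysis was possible beyond it, because the ratios leave no unpaired samples to block and the Axin2 arrays hold 1 pair of pools. The count of 7 members lower in Axin2+ cells was 7 under all 14 alternatives, and the members' median of -1.79 was -2.06 with median centring. Of the values of single members on the Axin2 arrays under an alternative, 97 stayed within the spread of the 2 arrays and 20 moved by more. *Pigr* was the one member to change sign, at -0.07 with median centring. In *Rspo3* KO colon, the 0 members past the adjusted p became 1, *Reg3b*, with the software's log ratios, with the series' table (1) and with an offset of 16 (1), and stayed 0 in the other 7 fits. The mean ratio of *Reg3b* was -5.31 with the software's ratios (-2.76 in pair 1 and -7.86 in pair 2) and -2.70 with the offset of 16. The 1 member past 1.5-fold alike (*Reg3b*) became 2 without the filter on dim probes, where *Reg3g* joined with -1.28, and 0 when both channels had to be above background. The count was 2 without pair 1 or without pair 2 (range 2 to 2), but only *Retnlb* was in both: they were *Reg3b* and *Retnlb* without pair 1 and *Pigr* (0.67) and *Retnlb* without pair 2, and there a single array stands for the mean and no test is possible. Without pair 1 *Reg3b* was -4.12, and without pair 2 it was -0.26. *Retnlb* was 1.54 without pair 1, -0.74 without pair 2 and -0.05 with error weights. *Pigr* was -0.15 and *Saa3* -0.00 without pair 1. Over all genes, the 35 past the adjusted p ranged from 0 (no filter) to 125 (software's ratios), with 1 when the background was fitted to all spots, 3 with the mean over probes, 7 with median centring, 70 without background correction and 122 with the offset of 16. The 658 past 1.5-fold in KO colon became 1458 with the software's ratios, 358 with the background fitted to all spots, 181 at 2-fold, 1547 without pair 1 and 2396 without pair 2. The 2336 in Axin2+ cells became 5122 with the software's ratios, 1077 with median centring and 666 at 2-fold. The causes were not tested. Signal over background limits *Lcn2* everywhere and *Reg3b*, *Reg3g* and *Retnlb* in tissue.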

Other observations

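Among bright genes of the lists whose spots were marked on the tissue arrays, *Car1*, a carbonic anhydrase of surface colonocytes, had ratios of KO over control of 0.79 and 0.96 with marked spots kept (limma adjusted p = 0.52), and *Guca2a*, the gene of guanylin, had 0.30 and 1.09 (adjusted p = 0.9998). The goblet cell genes *Clca1* (0.36 and -0.95) and *Zg16* (0.64 and -0.46) turned in opposite directions in the 2 pairs. *Zg16* and *Clca1* were thus without a common direction in tissue, whereas in the sorted cells *Zg16* was at -2.75 and -2.65.

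*Retnla*, a relative of *Retnlb* that alternatively activated macrophages make, was at levels of 9.90 and 8.33 in KO mice and 9.89 and 10.12 in control mice, and was not well above background in any sorted channel. *Slpi* differed between tissue and sorted cells, with levels of 12.78 to 14.86 in tissue and 8.80 to 10.95 in sorted cells. Non-uniform spots numbered 312 and 323 on the tissue arrays and 10 and 4 on the Axin2 arrays.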
